A study of Homo sapiens with 6 samples.

Results

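Epithelial-mesenchymal transition (EMT) is the programme by which epithelial cells loosen their junctions and take on a migratory form. Transcription factors of the SNAI, ZEB and TWIST families drive it, and they are known to bind E-box sequences at epithelial genes such as CDH1 and to repress them. GRHL2 and ESRP1 act for the epithelial state, and the exchange of E-cadherin for N-cadherin with a gain of vimentin is its usual readout.

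The 10 genes described here are SNAI1, SNAI2, ZEB1, ZEB2, TWIST1, CDH1, CDH2, VIM, ESRP1 and GRHL2, taken by symbol from 60624 genes of 1 expression table. The RNA came from A549, a human line of non-small cell lung cancer. CEP20 encodes a protein of the centrosome and of centriolar satellites. The 3 siCEP20 samples had received siRNA against CEP20 and the 3 siCTR samples a control siRNA, and each was transfected for 3 days. The labels name 1 cell line and no clone, nor do they say whether the replicates were separate cultures, so the p-values measure the spread between these samples, which may be technical. They also describe the treatment as a plasmid transfection, while the study's methods describe siRNA, list more than 1 siRNA against CEP20 and do not say which was sequenced.

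The values were TPM, a relative transcript abundance in which reads are scaled to the length of the transcript and to the sum of the library, and sequencing depth is unknown. The 13 mitochondrial protein-coding genes, which every cell uses, are listed at 0 in all 6 libraries, so a listed 0 does not by itself show that a gene is silent. CEP20 itself read 29.2, 30.5 and 35.1 TPM in siCTR and 16.2, 15.3 and 17.3 TPM in siCEP20, and the groups did not overlap (log2 fold change -0.92, SE 0.09, adjusted p = 0.000205). All 7 A549 marker genes listed, such as KRT7 and ALDH1A1, were present. Unscaled, 5 passed as higher and 2 as lower, against 30.2% of all tested genes higher and 13.2% lower. Among them were the keratin gene KRT8 at 0.53 and AKR1C1 at -0.33 on the log2 scale. After median-of-ratios scaling 2 of the 7 passed as higher and 2 as lower. CDKN2A, which A549 is known to have lost, read at most 0.61 TPM in any library. No library lay on the other group's side of the first principal component, which held 53.5% of the variance. The median log2 fold change of the 14778 genes tested was 0.13 rather than 0, and it was 9.4e-05 after median-of-ratios scaling, so small increases depended on the scaling. The tests found 4457 genes higher and 1944 lower unscaled, and 2963 higher and 3185 lower after median-of-ratios scaling. In bulk RNA, fewer cells of a type and less RNA per cell cannot be told apart.

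Of the members, 6 rose after CEP20 knockdown and none fell: the repressor genes SNAI1, ZEB1 and ZEB2, both cadherin genes CDH1 and CDH2, and VIM. These 6 of the 8 tested members passed at an adjusted p below 0.05 (limma on log2(TPM + 1)), whereas 30.2% of all tested genes were higher and 13.2% lower by the same rule. At an unadjusted p below 0.05, SNAI2 was higher too and 0 members were lower. With a fold change over 1.5 added, 5 members were higher (SNAI1, ZEB1, ZEB2, CDH1 and CDH2) against 11.2% of the tested genes higher and 4.61% lower. After median-of-ratios scaling, as after the values were corrected for the length and GC content of each transcript, 3 members were above that fold change, SNAI1, ZEB2 and CDH1. The siCEP20 libraries all lay above the siCTR libraries for those 6 and for SNAI2, compared with 38.4% of tested genes above and 17% below. The 2 members not tested were GRHL2 and ESRP1, which had means below 1 TPM. SNAI2 had a siCTR mean below 1 TPM as well and entered the test through its siCEP20 libraries, so its separation is no support.

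**Figure D1:**
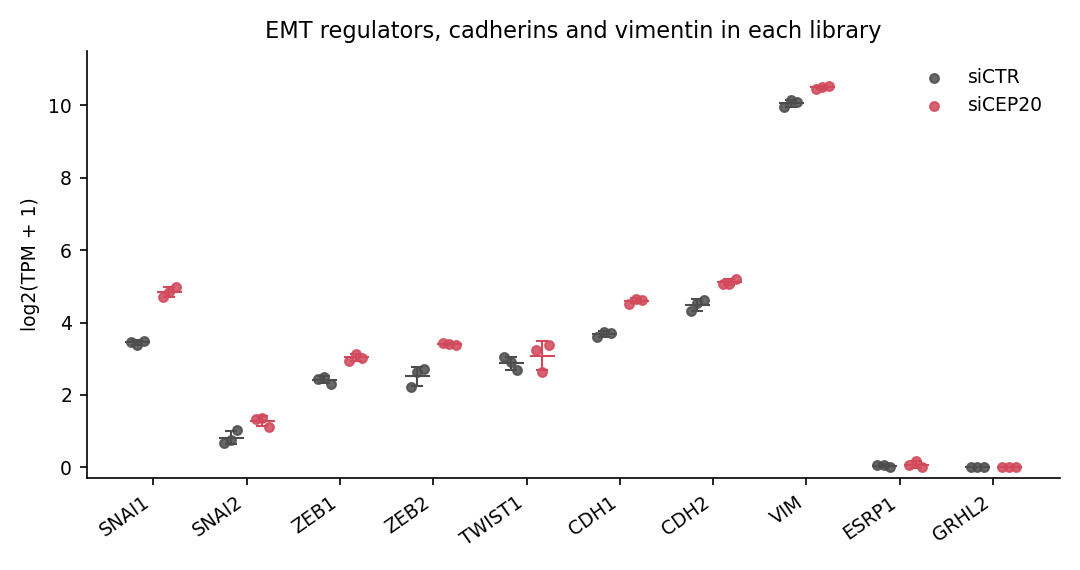
Expression of each member as log2(TPM + 1) in the 3 siCTR (grey) and 3 siCEP20 (red) libraries, with points for libraries, a bar for the mean and whiskers for 1 SD. SNAI1, ZEB1, ZEB2, CDH1, CDH2, VIM and SNAI2 lay above siCTR in every siCEP20 library, TWIST1 overlapped, and ESRP1 and GRHL2 lay at or near 0.

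SNAI1 encodes SNAIL, a zinc-finger repressor of CDH1, and it showed the largest increase among the members. SNAI1 (ENSG00000124216, chromosome 20, 49982980 to 49988886, plus strand, hg38) read 10.1, 9.42 and 10.3 TPM in siCTR and 25.3, 27.4 and 30.5 TPM in siCEP20. Each siCEP20 library was more than 2 times every siCTR library. The log2 fold change was 1.39 (SE 0.09, adjusted p = 4.77e-05), a difference greater than that of 99.5% of the tested genes. Over 14 alternative settings SNAI1 kept between 1.24 and 1.47, passing in 14 of 14.

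SNAI2 encodes SLUG, the paralogue of SNAIL. Its libraries held 0.609, 0.686 and 1.04 TPM in siCTR and 1.54, 1.58 and 1.16 TPM in siCEP20. These did not overlap, but the levels were low and the difference of 0.45 on the log2 scale (SE 0.19, 95% interval 0.023 to 0.88) missed the threshold (adjusted p = 0.0833). With a pseudocount of 0.1 in place of 1 the SNAI2 difference was 0.82, and SNAI2 passed in 1 of 13 alternatives, the test without a variance trend (adjusted p = 0.0252).

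ZEB1 and ZEB2 encode large zinc-finger and homeodomain repressors of CDH1. ZEB1 (ENSG00000148516, chromosome 10, 31318495 to 31529814, plus strand) read 4.42, 4.69 and 3.97 TPM in siCTR and 6.67, 7.83 and 7.16 TPM in siCEP20. Its groups did not overlap (log2 fold change 0.62, SE 0.11, adjusted p = 0.00301). ZEB2 (ENSG00000169554, chromosome 2, 144364364 to 144521057, minus strand) read 3.66, 5.18 and 5.55 TPM in siCTR and 9.87, 9.68 and 9.36 TPM in siCEP20. The ZEB2 siCTR libraries spread more widely than the siCEP20 ones, and their highest stayed well below the lowest siCEP20 value (log2 fold change 0.89, SE 0.14, adjusted p = 0.00155). After the length and GC correction ZEB1 was at 0.38 (adjusted p = 0.028) and ZEB2 at 0.61 (adjusted p = 0.00347). The ZEB1 transcript used there is 5937 bases long and that of ZEB2 9265 bases.

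Mature miR-200 family miRNAs, and miR-205, are known repressors of ZEB1 and ZEB2. Their RefSeq sequences (GRCh38.p14) are shown so that the family's seeds can be compared, with the seed, bases 2 to 8, in capitals.
hsa-miR-200b-3p: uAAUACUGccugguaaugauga
hsa-miR-200c-3p: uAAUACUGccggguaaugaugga
hsa-miR-429: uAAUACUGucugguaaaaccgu
hsa-miR-200a-3p: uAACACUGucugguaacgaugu
hsa-miR-141-3p: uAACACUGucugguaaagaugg
hsa-miR-205-5p: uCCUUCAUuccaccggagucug

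The first 3 share one seed, miR-200a and miR-141 share the other, and miR-205 has a seed of its own. The samples include no small-RNA library, so the mature miRNAs were not measured. The host and precursor genes MIR200CHG, MIR205HG, MIR200A, MIR200B, MIR200C and MIR429 are listed at 0 in every library. MIR141 averaged 0.134 TPM in siCTR (SD 0.23, n = 3), all of it from replicate 3 (0.401 TPM), and is listed at 0 in every other library. The MIR200C and MIR200B entries, for example, are 68 and 95 bases long. The methods describe poly(A) RNA, so zeros of such precursors do not show absence.

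ZEB1-AS1, a long noncoding RNA that starts beside ZEB1 on the opposite strand, read 1.56, 2.74 and 1.67 TPM in siCTR and 2.74, 3.81 and 5.35 TPM in siCEP20. The highest siCTR library lay just below the lowest siCEP20 library. The increase passed (log2 fold change 0.72, SE 0.23, adjusted p = 0.0351) but not after median-of-ratios scaling (0.61, adjusted p = 0.0634). The methods describe libraries that mark strand, but whether counting used it is not given in the sources used here, so the shares of ZEB1 and ZEB1-AS1 where they overlap are uncertain. SNAI3-AS1 did not pass (log2 fold change 0.15, adjusted p = 0.415, and -0.02 under quantile normalization). ZEB2-AS1 is listed at 0, and VIM-AS1 averaged 1.33 TPM in siCTR (SD 0.73, n = 3) and 0.557 TPM in siCEP20 (SD 0.62, n = 3), with overlapping groups and no test.

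Promoter windows at RefSeq start sites, 250 bases before to 50 bases from the start, were taken for 4 members, ZEB1, ZEB2, VIM and CDH2. They made 11 windows. SNAI1, SNAI2, TWIST1, CDH1, ESRP1 and GRHL2 were not searched. CAGGTG is the E-box form that the SNAI and ZEB proteins are known to bind. The windows were searched on both strands for CAGGTG and CAGGTA, of which the first is 1 case of the general E-box CANNTG. A match to either was present in 5 of the 7 windows of ZEB1 and in none of the windows of ZEB2, VIM and CDH2. Of those ZEB1 windows, only the ones at chr10:31318167 and chr10:31318966 held CAGGTG, and the rest held CAGGTA alone. The ZEB1 window with the most matches is shown, chr10:31318966-31319265 on the plus strand of GRCh38.p14, with its 3 matches in capitals. It lies inside the annotated span of ZEB1.
ZEB1: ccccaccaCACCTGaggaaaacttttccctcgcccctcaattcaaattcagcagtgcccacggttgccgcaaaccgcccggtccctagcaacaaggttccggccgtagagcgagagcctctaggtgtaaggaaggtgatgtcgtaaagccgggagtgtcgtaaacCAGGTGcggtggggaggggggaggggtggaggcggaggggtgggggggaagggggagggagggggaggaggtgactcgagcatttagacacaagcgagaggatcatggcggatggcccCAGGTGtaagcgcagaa

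Counting from the start base as the first, with no base numbered 0, the matches begin at -242, -85 and 34. The match at -242 reads CACCTG, the reverse complement. CAGGTG occurs on either strand in 20.6% of 35116 windows of this length, 3 or more in 0.635%, and CAGGTG or CAGGTA in 28.1%. This window was picked as the richest of 7, and a match describes letters, not binding.

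TWIST1, a basic helix-loop-helix factor of mesoderm and of EMT, read 7.23, 6.46 and 5.43 TPM in siCTR and 8.46, 5.17 and 9.44 TPM in siCEP20. Its groups overlapped, since siCEP20 replicate 2 held the lowest value of the 6 libraries. The TWIST1 difference was 0.21 on the log2 scale (SE 0.20, 95% interval -0.25 to 0.67, adjusted p = 0.433). Without siCEP20 replicate 2 it was 0.44 with an adjusted p of 0.0498, so 1 library decided that call.

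CDH1 encodes E-cadherin, the calcium-dependent adhesion molecule of epithelial junctions that SNAIL and the ZEB proteins repress. CDH1 (ENSG00000039068, chromosome 16, 68737292 to 68835537, plus strand) read 11.1, 12.4 and 11.98 TPM in siCTR and 21.9, 24.1 and 23.7 TPM in siCEP20. It rose in the same libraries in which SNAI1, ZEB1 and ZEB2 rose (log2 fold change 0.92, SE 0.08, adjusted p = 0.000128). The CDH1 difference exceeded that of 97.1% of tested genes and ranged from 0.71 to 0.97 over the alternatives.

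CDH2 encodes N-cadherin, the cadherin of neural and mesenchymal cells. CDH2 (ENSG00000170558, chromosome 18, 27932879 to 28177946, minus strand) read 18.8, 22.2 and 23.6 TPM in siCTR and 32.4, 32.7 and 35.7 TPM in siCEP20. The groups were well apart (log2 fold change 0.62, SE 0.10, adjusted p = 0.00146). After median-of-ratios scaling the CDH2 difference was 0.48 and still passed (adjusted p = 0.00235).

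VIM encodes vimentin, the intermediate filament protein of mesenchymal cells. VIM (ENSG00000026025, chromosome 10, 17228241 to 17237593, plus strand) read 987, 1124 and 1084 TPM in siCTR and 1386, 1437 and 1478 TPM in siCEP20, so it was already among the most abundant transcripts of these cells. Unscaled, it passed with a smaller change than the cadherins (log2 fold change 0.43, SE 0.06, adjusted p = 0.00083) and did not reach the fold change of 1.5. The VIM difference was 0.28 after median-of-ratios scaling (adjusted p = 0.00306). Under quantile normalization it was 0.64 (adjusted p = 0.000114), past the fold change of 1.5, with CDH2 at 0.49 and CDH1 at 0.77.

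GRHL2, a grainyhead-like factor that maintains epithelial genes, is listed at 0 in all 6 libraries. ESRP1, the epithelial splicing regulator, read 0.052, 0.041 and 0 TPM in siCTR and 0.052, 0.125 and 0 TPM in siCEP20. Neither level could be compared, and CDH1 was present at more than 11 TPM in every library.

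**Figure D2:**
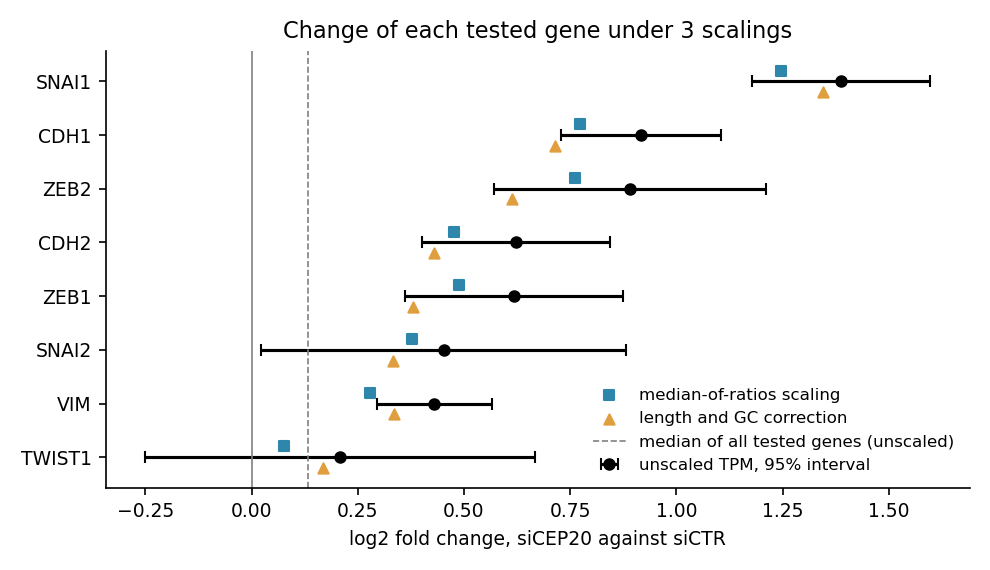
Log2 fold change, siCEP20 against siCTR, of the 8 tested members on the log2(TPM + 1) scale, with 95% intervals from the unscaled fit (black), beside median-of-ratios scaling (blue squares) and the length and GC correction (orange triangles). The dashed line is the median of all tested genes, 0.13. SNAI1 lay furthest right at 1.39, and the TWIST1 interval crossed 0.

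Ordered by mean TPM, the siCTR libraries held VIM (1065), CDH2 (21.5), CDH1 (11.8), SNAI1 (9.95), TWIST1 (6.38), ZEB2 (4.80), ZEB1 (4.36), SNAI2 (0.777), ESRP1 (0.031) and GRHL2 (0). Neighbours in that order had ranges that did not overlap, except TWIST1 with ZEB2, ZEB2 with ZEB1, and ESRP1 with GRHL2. In siCEP20, SNAI1 (27.7 TPM) stood above CDH1 (23.2 TPM) in each of the 3 libraries, while TWIST1 (7.69 TPM) overlapped both ZEB2 (9.64 TPM) and ZEB1 (7.22 TPM). N-cadherin transcripts exceeded E-cadherin transcripts in both groups.

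A ratio within a library does not depend on the scaling between libraries. The CDH1 to CDH2 ratio, in plain TPM, was 0.591, 0.560 and 0.507 in siCTR and 0.676, 0.739 and 0.663 in siCEP20, that is, higher in all 3 siCEP20 libraries. The CDH1 to VIM ratio was 0.0112, 0.0111 and 0.0111 in siCTR and 0.0158, 0.0168 and 0.0160 in siCEP20, and again the groups did not overlap. On the log2 ratio of (TPM + 1) the first rose from a mean of -0.81 (SD 0.11, n = 3) to -0.51 (SD 0.08, n = 3) and the second from -6.38 (SD 0.02, n = 3) to -5.89 (SD 0.04, n = 3), differences of 0.29 and 0.49. An exact permutation test, two-sided, returned p = 0.1 for both, the smallest that 3 against 3 libraries allow, so neither could pass 0.05. With GRHL2 listed at 0 and ESRP1 near 0, their log2 ratios to ZEB1 restate ZEB1 through the pseudocount (differences of -0.62 and -0.58, exact permutation p = 0.1 for both). In plain TPM the ESRP1 to ZEB1 ratio was 0.0117, 0.00868 and 0 in siCTR and 0.00779, 0.0159 and 0 in siCEP20, and the groups overlapped.

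**Figure D3:**
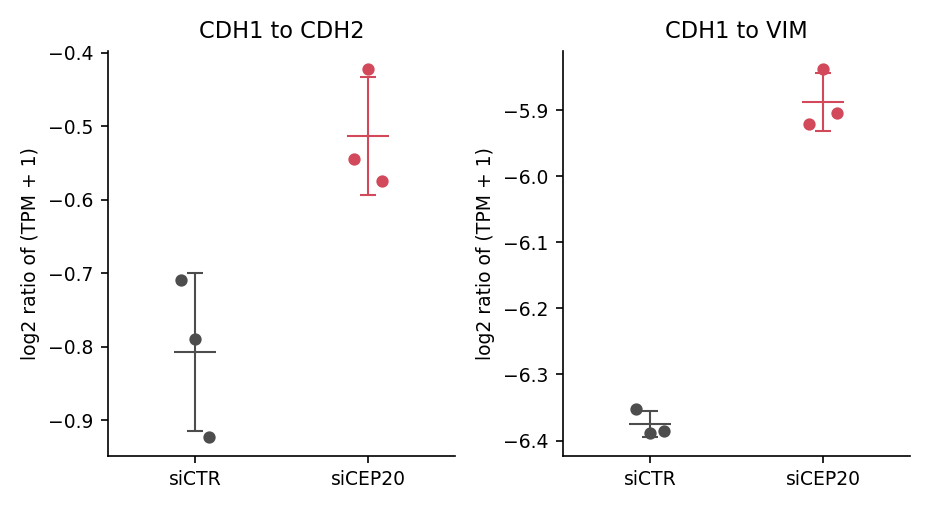
Log2 ratio of (CDH1 TPM + 1) to (CDH2 TPM + 1) on the left and to (VIM TPM + 1) on the right, in each library, with the mean and 1 SD; the axes do not start at 0. Both ratios were higher in each siCEP20 library than in any siCTR library.

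The genes around the members were counted by lists. Each unscaled count is to be read against the 30.2% of genes higher and 13.2% lower. Counts after median-of-ratios scaling stand beside 2963 genes higher and 3185 lower of the 14778 tested. Counts after the length and GC correction stand beside 2934 genes higher and 3144 lower. Where none of a list fell, 0 of its genes were lower at an unadjusted p below 0.05 as well. Among other EMT transcription factors, 7 of the 10 tested rose and none fell, with a median log2 fold change of 0.54. After median-of-ratios scaling 5 passed as higher, and 6 after the length and GC correction. TCF3, whose E2A products repress CDH1, went from 18.7 TPM (SD 1.24, n = 3) to 43.2 TPM (SD 0.88, n = 3), a log2 fold change of 1.17 (SE 0.07, adjusted p = 3.93e-05). TWIST2, the paralogue of TWIST1, went from 25.4 to 41.2 TPM (0.68, adjusted p = 0.000675). SOX9 rose by 0.93, SOX4 by 0.75 and ZNF281 by 0.72 on the log2 scale, each above 1.5-fold unscaled. Their groups did not overlap. ZNF281 still passed but was under 1.5-fold after median-of-ratios scaling (0.57). So were SOX4 (0.54) and ZNF281 (0.50) after the length and GC correction. FOSL1 (0.40) and HMGA2 (0.25), named after their values were seen, changed less. Both lost their calls after median-of-ratios scaling (adjusted p = 0.0531 and 0.189). After the length and GC correction FOSL1 passed (adjusted p = 0.0117) and HMGA2 did not (adjusted p = 0.435).

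Corepressors that work with SNAIL and the ZEB proteins moved little. Of the 10 listed and tested, 3 passed as higher: CTBP2, partner of the ZEB proteins, at 0.31 (adjusted p = 0.0241), the demethylase gene KDM1A at 0.24 (adjusted p = 0.0157) and the methyltransferase gene EZH2 at 0.30 (adjusted p = 0.0159). The median of the list was 0.21, and these 3 did not pass after median-of-ratios scaling (adjusted p from 0.103 to 0.167).

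SNAIL is a short-lived protein, marked for destruction by GSK3B and F-box ubiquitin ligases. Transcripts of 7 of the 10 genes for its degradation or stabilization rose and none fell, with a median of 0.38. The kinase gene GSK3B rose by 0.67 (adjusted p = 0.00236), FBXL5 by 0.53 (adjusted p = 0.000729), FBXO11 by 0.42 (adjusted p = 0.00262) and COPS2, a COP9 signalosome subunit, by 0.59 (adjusted p = 0.0112). After median-of-ratios scaling 4 of the 10 passed as higher, and 3 passed after the length and GC correction, when 1 passed as lower. SNAIL protein was not measured.

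Epithelial regulators other than GRHL2 and ESRP1 rose too. Of 15 listed, 9 were tested, 8 rose and none fell, and the median was 0.68. TP63 among them, named after its values were seen, entered the test through its siCEP20 libraries. ELF3, an ETS factor of epithelia, read 92.3, 90.7 and 83.2 TPM in siCTR and 138.7, 149.8 and 138.7 TPM in siCEP20. The Krüppel-like factor genes KLF4 and KLF5 rose by 0.71 (adjusted p = 0.000514) and 0.74 (adjusted p = 0.00107). Of the 9, 8 passed as higher after median-of-ratios scaling and 7 after the length and GC correction.

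**Figure D4:**
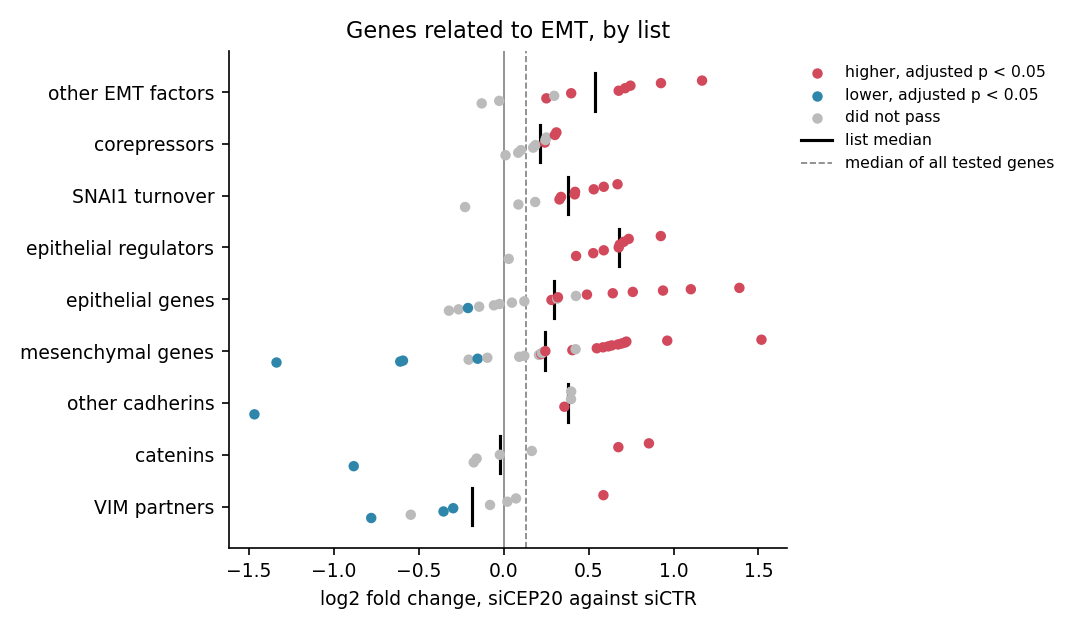
Log2 fold change, siCEP20 against siCTR, of each tested gene in 9 lists related to EMT, coloured by whether it passed at an adjusted p below 0.05, with the median of each list as a black bar and the median of all tested genes dashed. Epithelial regulators and other EMT factors lie mostly to the right, and the list labelled VIM partners, which includes nuclear lamins, has a median below 0.

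Among epithelial genes proper, 18 of 26 were tested, 8 rose and 1 fell, with a median of 0.30. The mucin gene MUC1 read 2.26, 2.53 and 2.57 TPM in siCTR and 7.24, 7.29 and 9.79 TPM in siCEP20 (log2 fold change 1.39, SE 0.14, adjusted p = 0.000209). SPINT1, a protease inhibitor of epithelia, rose by 0.94 (adjusted p = 0.000738) from 1.85 to 4.46 TPM, and DSP, which encodes the desmosome protein desmoplakin, by 0.76 (adjusted p = 0.000187). The gene that fell, named after its values were seen, was SPINT2, at -0.21 (adjusted p = 0.0154). With the length and GC correction 5 of these genes passed as higher and 2 as lower.

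Mesenchymal genes did not move one way. Of the 25 tested of 26, 13 rose, 4 fell and 8 did not pass, and the median was 0.25. After median-of-ratios scaling 10 passed as higher and 4 as lower with a median of 0.095, and after the length and GC correction 10 passed as higher and 5 as lower, the median being 0.15. ACTA2, smooth muscle actin, read 22.6, 24.7 and 21.2 TPM in siCTR and 64.2, 70.9 and 66.5 TPM in siCEP20 (log2 fold change 1.52, SE 0.08, adjusted p = 2.26e-05). TGFBI rose by 0.96, CALD1 by 0.72, fibronectin gene FN1 by 0.71, COL5A1 by 0.69, IGFBP3 by 0.62 and CD44 by 0.59, all with groups that did not overlap.

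S100A4, a calcium-binding protein gene used as a fibroblast and metastasis marker, went the other way. Its libraries held 1948, 1941 and 1834 TPM in siCTR and 763, 788 and 710 TPM in siCEP20 (log2 fold change -1.34, SE 0.05, adjusted p = 1.32e-05). LGALS1, galectin-1, fell from 1383 TPM (SD 27.7, n = 3) to 916 TPM (SD 26.6, n = 3), a log2 fold change of -0.59. Both have short transcripts, 513 and 528 bases, and after the length and GC correction they were at -1.25 and -0.48. The other genes that fell, named after their values were seen, were TAGLN (-0.61) and TPM2 (-0.15).

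Of 8 fibroblast markers, COL1A1 and THY1 were tested and both rose, COL1A1 by 1.61 (adjusted p = 3.12e-05) and THY1 by 0.72 (adjusted p = 0.00234). The summed level of the 8 was 12.4 to 15.3 TPM in siCTR and 31.3 to 35.4 TPM in siCEP20, while the defining markers COL1A2 and DCN are listed at 0 in every library. Among 8 immune and endothelial markers, CD68, also a lysosomal gene, rose by 0.79 (adjusted p = 0.0161) and CD14 did not pass (-0.16, adjusted p = 0.397). These 8 summed to 24.6 to 34.7 TPM in siCTR and 35.4 to 55.2 TPM in siCEP20, and CD3E is listed at 0.

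Of 16 cadherin genes beyond CDH1 and CDH2, 4 were tested and the other 12 had means below 1 TPM. CDH15, the M-cadherin of muscle, read 9.28, 12.4 and 7.95 TPM in siCTR and 2.77, 3.23 and 2.63 TPM in siCEP20 and fell by 1.47 on the log2 scale (SE 0.16, adjusted p = 0.000301). CDH4, R-cadherin, went from 6.38 to 8.44 TPM (0.36, adjusted p = 0.031), and it did not pass after median-of-ratios scaling (adjusted p = 0.122). CDH24 (0.40, adjusted p = 0.0863) did not pass, nor did CDH17 (0.40, adjusted p = 0.131), which was named after its values were seen.

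Cadherins act through catenins, which join them to actin. The core catenin genes gave no call unscaled: CTNNB1, β-catenin, read 114, 139 and 139 TPM in siCTR and 118, 118 and 113 TPM in siCEP20 (-0.16, adjusted p = 0.151), CTNNA1 was at -0.02 (adjusted p = 0.837) and CTNND1 at 0.17 (adjusted p = 0.0907). That depended on the scaling, since CTNNB1 passed as lower after median-of-ratios scaling (-0.31, adjusted p = 0.00641) and after the length and GC correction (-0.34, adjusted p = 0.00321), and CTNNA1 after the latter (-0.20, adjusted p = 0.0304). Of the 7 tested catenin and linker genes, 1 passed as lower unscaled, 3 after median-of-ratios scaling and 4 after the length and GC correction. CTNNAL1, named after its values were seen, was at -0.18 unscaled (adjusted p = 0.0577). It passed as lower after median-of-ratios scaling (-0.33, adjusted p = 0.00161) and after the length and GC correction (-0.31, adjusted p = 0.00184). The linkers around the core catenins differed. JUP, plakoglobin, which binds E-cadherin and desmosomal cadherins, read 252, 261 and 298 TPM in siCTR and 470, 490 and 507 TPM in siCEP20 (log2 fold change 0.86, SE 0.07, adjusted p = 9.19e-05). VCL, vinculin, which binds α-catenin under tension, read 103, 126 and 107 TPM in siCTR and 58.9, 61.0 and 60.2 TPM in siCEP20 (-0.88, SE 0.08, adjusted p = 0.000148). AFDN, the nectin linker afadin, rose by 0.68 (adjusted p = 0.000815). JUP and VCL thus moved in opposite directions with groups far apart.

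**Figure D5:**
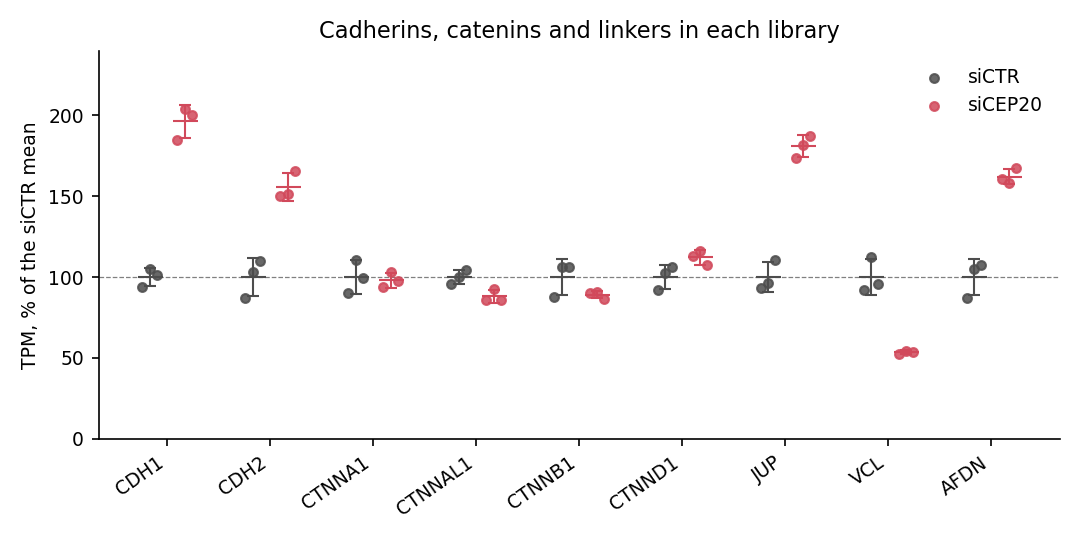
TPM of CDH1, CDH2 and the 7 tested catenin and linker genes in each library, as a percentage of that gene's siCTR mean (dashed line, 100%), with the mean and 1 SD. CDH1, CDH2, JUP, AFDN and CTNND1 lie above the siCTR libraries, VCL and CTNNAL1 lie below, and CTNNA1 and CTNNB1 overlap.

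Genes listed beside VIM, for other intermediate filament proteins, nuclear lamins and linkers, included more that fell than rose. Of 8 tested, 1 rose and 3 fell, with a median of -0.19. LMNB2, a lamin B gene, fell by 0.36 (adjusted p = 0.00185) and SYNM, synemin, by 0.30 (adjusted p = 0.0172). The 1 counted as higher was NES, nestin, at 0.905 TPM in siCTR and 1.87 TPM in siCEP20 (0.59, adjusted p = 0.0199). It entered the test through its siCEP20 libraries, and it did not pass after the length and GC correction (adjusted p = 0.089). The genes passing as lower were 4 after median-of-ratios scaling and 5 after the length and GC correction. The third that fell, named after its values were seen, was GFAP, from 3.01 to 1.39 TPM (-0.78, adjusted p = 0.0324).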

How the data were processed

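The authors deposited 1 table of TPM values per gene for the 6 libraries. Per the labels and methods, reads were trimmed with fastp 0.20.1, aligned to hg38 with HISAT2 2.1.0 and quantified with StringTie 2.0, and values of transcripts that share a gene were combined. Each column sums to 1000000, so depth cannot be recovered and no counting interval is given. Of the rows, 99.6% had a symbol. Genes that averaged 1 TPM or more over the libraries were tested with limma 3.58.1 (R 4.3.3; eBayes with trend) on unscaled log2(TPM + 1), with Benjamini-Hochberg adjustment over all 14778. The pseudocount of 1 understates changes of low genes. The fit was tested on simulated data in which few genes changed, as many up as down. That simulation did not include the shift of the median seen in these data. The fold change thresholds, 1.5 and 0.67, are those of the study, whose own test needs counts. Transcript lengths and GC content came from GENCODE 44 and promoters and miRNAs from RefSeq tables.

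The members and lists were chosen with earlier results of these data known. Genes named were the members, CEP20, the 3 genes of each list with the smallest adjusted p, genes at 10 TPM or more in siCTR past the fold change threshold, the neighbouring RNAs and the nearest profiles; exceptions are stated, and 1 gene that the rule names is not reported here. The alternatives were another pseudocount (0.1), no filter or 5 TPM, median-of-ratios or quantile scaling, no trend, a replicate block, a length and GC correction (loess, span 0.5), and each library left out. The labels and the methods differ on medium, RNA kit and RNA input.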

Additional observations from a re-analysis of the deposited data

How the results depend on the processing

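Over the 14 alternatives, SNAI1, ZEB1, ZEB2, CDH1, CDH2 and VIM passed as higher in each, and no member passed as lower. The count of members passing as higher stayed at 6 to 7. Members above the 1.5-fold threshold were 5 as reported and 4 to 5 with 1 library left out. They were 3 after median-of-ratios scaling and 3 after the length and GC correction. Under quantile normalization they were 4, namely SNAI1, ZEB2, CDH1 and VIM, without ZEB1 and CDH2. Over all genes, median-of-ratios scaling gave 2963 passing as higher and 3185 as lower against 4457 and 1944 unscaled, and 894 and 1103 past the fold change threshold against 1659 and 682; the length and GC correction gave 2934 and 3144, with 896 past the threshold as higher, and quantile normalization 2938 lower and 923 past the threshold as higher. The cause was not tested. The CDH1 to VIM difference was 0.54 at a pseudocount of 0.1, 0.54 at 0 and 0.38 after the length and GC correction, and the ESRP1 to ZEB1 difference -0.49 at a pseudocount of 0.1; that cause was not tested either. Epithelial genes passing as higher were 5 with the 5 TPM filter, which tests fewer genes, and 5 with the length and GC correction. Those passing as lower, 1 as reported, were 2 with median-of-ratios scaling, 4 with quantile normalization, 0 without a trend and 2 with the length and GC correction, and 0 to 1 with a library left out (0 without siCTR replicate 2 and 0 without siCEP20 replicate 1). The log2 fold change of SNAI3-AS1 turned to -0.021 under quantile normalization. Of the settings run for the other named genes, 594 gave the same call, 43 a weaker one, 1 a stronger one and 1 the opposite sign. A pseudocount of 0 could not be used for the GRHL2 and ESRP1 ratios, nor the length and GC correction for these untested genes. Same-numbered libraries deviated together with correlations of 0.16, -0.06 and -0.06, and siCTR replicate 2 with siCEP20 replicate 3 at 0.17. Such values from so few libraries do not settle whether the replicate numbers pair the samples. With the replicate block 6 members still passed and 4274 genes passed as higher and 1857 as lower. Depth is unknown, which leaves the lowest members, SNAI2, ESRP1 and GRHL2, without a stated detection limit.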

Other observations

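Among 12268 protein-coding genes, the one whose profile over the 6 libraries lay closest to each member that passed was found by the smallest largest difference between their log2(TPM + 1) values, each centred on its own mean. For SNAI1 it was CCN1, which encodes a secreted matrix protein and went from 85.4 TPM (SD 7.19, n = 3) to 236 TPM (SD 11, n = 3), never more than 0.087 away. ZEB1 was closest to SOS1, an exchange factor for RAS, and ZEB2 to VGLL4, a TEAD cofactor that went from 19.1 to 36.4 TPM. CDH1 was closest to NRP2, a neuropilin gene that went from 117 TPM (SD 5.67, n = 3) to 223 TPM (SD 6.78, n = 3) and stayed within 0.039. CDH2 was closest to BCAM, a laminin receptor gene, within 0.037, and VIM to PCED1A within 0.018. The libraries fall into 2 groups, so these likenesses are a description over 6 points and carry no test.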
